A study of Mus musculus and Rattus norvegicus with 12 samples.

Results

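The genes described here are 47 genes of the cell cycle and mitosis, from the D-type cyclins that open the cycle to the kinesins that close it. They are a fixed list of symbols, matched with case ignored to the rows of both count tables of the series. The matching used no expression value, but the list was drawn up with earlier results of these data known. All 47 have a row among the 54087 symbols of the mouse table, and 45 have one among the 28909 symbols of the rat table, where E2f1 and Ccnb2 were not analysed here. The series targeted Jmjd4, which encodes a JmjC-domain oxygenase, in mouse hearts and in cultured rat heart cells. Flox mice (n = 3) carry floxed Jmjd4 alleles (Jmjd4f/f) and no Cre transgene. In cKO mice (n = 3) the same alleles are combined with MCM, a Cre that tamoxifen activates and that the cardiomyocyte promoter myh6 drives, so other heart cells should keep the gene. Both groups received tamoxifen, and the heart apex was taken 14 days later. Since the controls lack Cre, the effects of Cre and of the deletion cannot be told apart. The cultured cells were NRVCs, labelled as cardiomyocytes from ventricles of newborn Sprague-Dawley (SD) rats, treated for 48 h with a control siRNA (siNC, n = 3) or one against Jmjd4 (siJmjd4, n = 3). Separate isolations are not named for the NRVC samples, so p-values there measure the spread between these samples, which may be technical.

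The cell cycle runs through a first gap phase (G1), DNA synthesis (S), a second gap (G2) and mitosis. Cyclins switch on their kinases in turn, E2F factors turn on replication genes around the entry into S, and the MuvB complex with B-Myb and FoxM1 turns on the mitotic genes. Adult mouse cardiomyocytes rarely divide, whereas fibroblasts, endothelial cells and immune cells of the heart can, and cells of the newborn heart still cycle.

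The stretches of promoter below are shown for letters of elements that the literature ties to these phases. Such letters occur in 5 of the 6, and Mybl2 is shown as a gene with none of the letters searched. RefSeq windows of mouse promoters (GRCm38.p6, 250 bases before to 50 after the annotated start) were found for 37 of the 47 genes. The letters searched, on both strands, were TTTGAA, the core of the cell cycle homology region (CHR) bound by MuvB complexes, CCAAT, the NF-Y box, and the E2F forms TTTCGCGC and TTTGGCGC. Each line gives the 200 bases just before the start, 5′ to 3′ on the gene's strand, with every match in capitals. Where matches overlap, the capitals run together.
Cdk1: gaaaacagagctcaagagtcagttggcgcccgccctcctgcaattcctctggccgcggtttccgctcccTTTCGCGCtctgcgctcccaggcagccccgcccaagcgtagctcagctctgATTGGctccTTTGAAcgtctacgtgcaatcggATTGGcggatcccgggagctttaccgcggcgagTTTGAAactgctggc
Top2a: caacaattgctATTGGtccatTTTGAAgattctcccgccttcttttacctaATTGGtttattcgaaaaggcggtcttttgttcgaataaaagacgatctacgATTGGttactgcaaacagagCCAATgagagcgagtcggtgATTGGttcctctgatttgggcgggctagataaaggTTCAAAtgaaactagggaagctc
Cdc20: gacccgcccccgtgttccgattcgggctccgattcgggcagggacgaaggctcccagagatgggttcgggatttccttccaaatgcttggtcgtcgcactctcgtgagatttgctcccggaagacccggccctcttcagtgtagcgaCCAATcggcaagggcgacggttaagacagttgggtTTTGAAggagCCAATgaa
Cdca5: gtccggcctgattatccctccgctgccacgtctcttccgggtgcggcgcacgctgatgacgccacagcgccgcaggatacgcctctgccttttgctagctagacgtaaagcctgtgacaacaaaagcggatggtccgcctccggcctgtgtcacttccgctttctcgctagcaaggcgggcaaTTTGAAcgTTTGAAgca
Mcm6: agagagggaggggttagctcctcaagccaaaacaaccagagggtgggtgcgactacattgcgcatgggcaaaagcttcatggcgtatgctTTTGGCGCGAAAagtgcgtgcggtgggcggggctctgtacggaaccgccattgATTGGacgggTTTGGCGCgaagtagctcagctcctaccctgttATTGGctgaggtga
Mybl2: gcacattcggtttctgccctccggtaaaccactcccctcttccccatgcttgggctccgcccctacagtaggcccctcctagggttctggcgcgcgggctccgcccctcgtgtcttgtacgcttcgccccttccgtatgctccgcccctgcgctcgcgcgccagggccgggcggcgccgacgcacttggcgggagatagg

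These stretches lie at chr10:69352913-69353112 (Cdk1, minus strand), chr11:99024190-99024389 (Top2a, minus), chr4:118437344-118437543 (Cdc20, minus), chr19:6084897-6085096 (Cdca5, plus), chr1:128359706-128359905 (Mcm6, minus) and chr2:163054435-163054634 (Mybl2, plus). TTTGAA occurred in the windows of 18 of the 37 genes, against 18.1% of the 27025 promoter windows in the reference. By role, 17 of the 22 genes of the S, G2 and mitotic groups held it, and 1 of the 15 genes of the G1 and replication groups did (Mcm2). Within 50 bases of the start it was present in 16 of those 22 genes, against 4.92% of all promoter windows. CCAAT occurred in 27 of the 37 genes, against 37.9% of all windows. Either E2F form occurred in 5 of the 37, against 0.833% of all windows, and these were Mcm3, Mcm5, Mcm6, Mcm7 and Cdk1. Mybl2, the gene of B-Myb, held none of the searched letters in its window. Other forms of these elements were not searched, so a gene without a match may still carry one. A match is a description of the letters, not a measured binding site.

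The 12 libraries held 57174654 to 82187009 counts each. Flox replicate 3 stood apart, with 41.7% of its counts from the mitochondrial genome against 14.2% to 24.1% in the other hearts, and 1485 tested genes at 0 against 125 to 503. Flox replicate 3, cKO replicate 2, siNC replicate 3 and siJmjd4 replicate 1 also gave relatively less signal to long transcripts than their group (Spearman rho with length -0.62, -0.55, -0.48 and -0.37), so results are given with and without them. Jmjd4 itself was at 19.0, 8.04 and 16.9 CPM (library-scaled counts, with sizes adjusted by edgeR's TMM) in flox and 8.95, 4.92 and 9.63 CPM in cKO hearts, which overlap. Jmjd4 values in the rat were 3.46, 4.40 and 0.982 CPM in siNC and 3.58, 3.43 and 3.52 CPM in the libraries labelled siJmjd4, which were therefore not lower. Heart libraries carried cardiomyocyte markers at a summed 23418 to 47423 CPM. The NRVC libraries, labelled cardiomyocytes, carried 8 fibroblast markers at 35307 to 47796 CPM and 7 cardiomyocyte markers at 4338 to 9788 CPM. In bulk RNA, fewer cells of a type and less RNA per cell cannot be told apart.

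In the hearts, most of these genes had higher values in cKO than in flox, and the differences were larger for the late genes of the cycle. The fitted value was higher for 41 of the 47 genes, against 50.0% of the 18094 genes tested, and the median log2 fold change was 1.38, against 0.00 for all genes tested. The median stays 1.38 with Cdca5, which has no count in flox, set at its lower bound. Scaled by total counts alone, all genes shift to a median of 0.54, and 44 of the 47 lie above that. With a length trend removed from each library the shift is -0.16, with 41 above it. All 47 passed the filter on low counts. A gene counts as called when its p in edgeR's quasi-likelihood test, adjusted by Benjamini-Hochberg across every gene tested, is under 0.05. By that rule 0 of the 47 genes were called in either direction, against 0.508% of all genes tested. At an unadjusted p under 0.05, 20 genes were higher, against 8.22% of all genes tested, and 0 were lower, against 6.79%. The 3 cKO hearts lay above all 3 flox hearts for 20 genes, against 14.9% of all genes tested, and below them for 1 gene (Cdk2), against 11.2%. Per gene the median was 1.82 CPM over the flox means and 4.85 CPM over the cKO means.

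The hearts of a group differed a good deal among themselves. Relative to each gene's mean over the 6 hearts, the median log2 deviation of the genes was -0.20, -0.39 and -1.28 in flox replicates 1, 2 and 3 and 0.38, 0.10 and 1.46 in cKO replicates 1, 2 and 3. The highest value of the 6 hearts was in cKO replicate 3 for 38 of the 47 genes, against 17.6% of all genes tested, and the lowest was in flox replicate 3 for 29, against 41.5%. Without cKO replicate 3, 41 genes still had higher values, with a median log2 fold change of 0.90, and 4 were higher at an unadjusted p under 0.05, against 5.31% of all genes tested. Without flox replicate 3, 44 had higher values, with a median of 1.14, and 0 were called by edgeR, against 4.26% of all genes tested called higher, with 21 higher at an unadjusted p under 0.05, against 13.3%.

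The number called depended on how the libraries were weighed. Without flox replicate 3 and cKO replicate 2, edgeR's quasi-likelihood test called 15 of the 47 genes higher, against 9.54% of all genes tested, and 0 lower, against 9.53%. Limma voom with sample quality weights, on all 6 hearts, called 21, all of them higher, against 21.3% of all genes called in either direction. DESeq2's Wald test called 8 higher, against 2.75% of 28130 genes, a wider set without the filter on low counts. The 6 genes called in all 3 of these were Bub1b, Ccna2, Cdca5, Kif11, Mybl2 and Tyms.

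**Figure D1:**
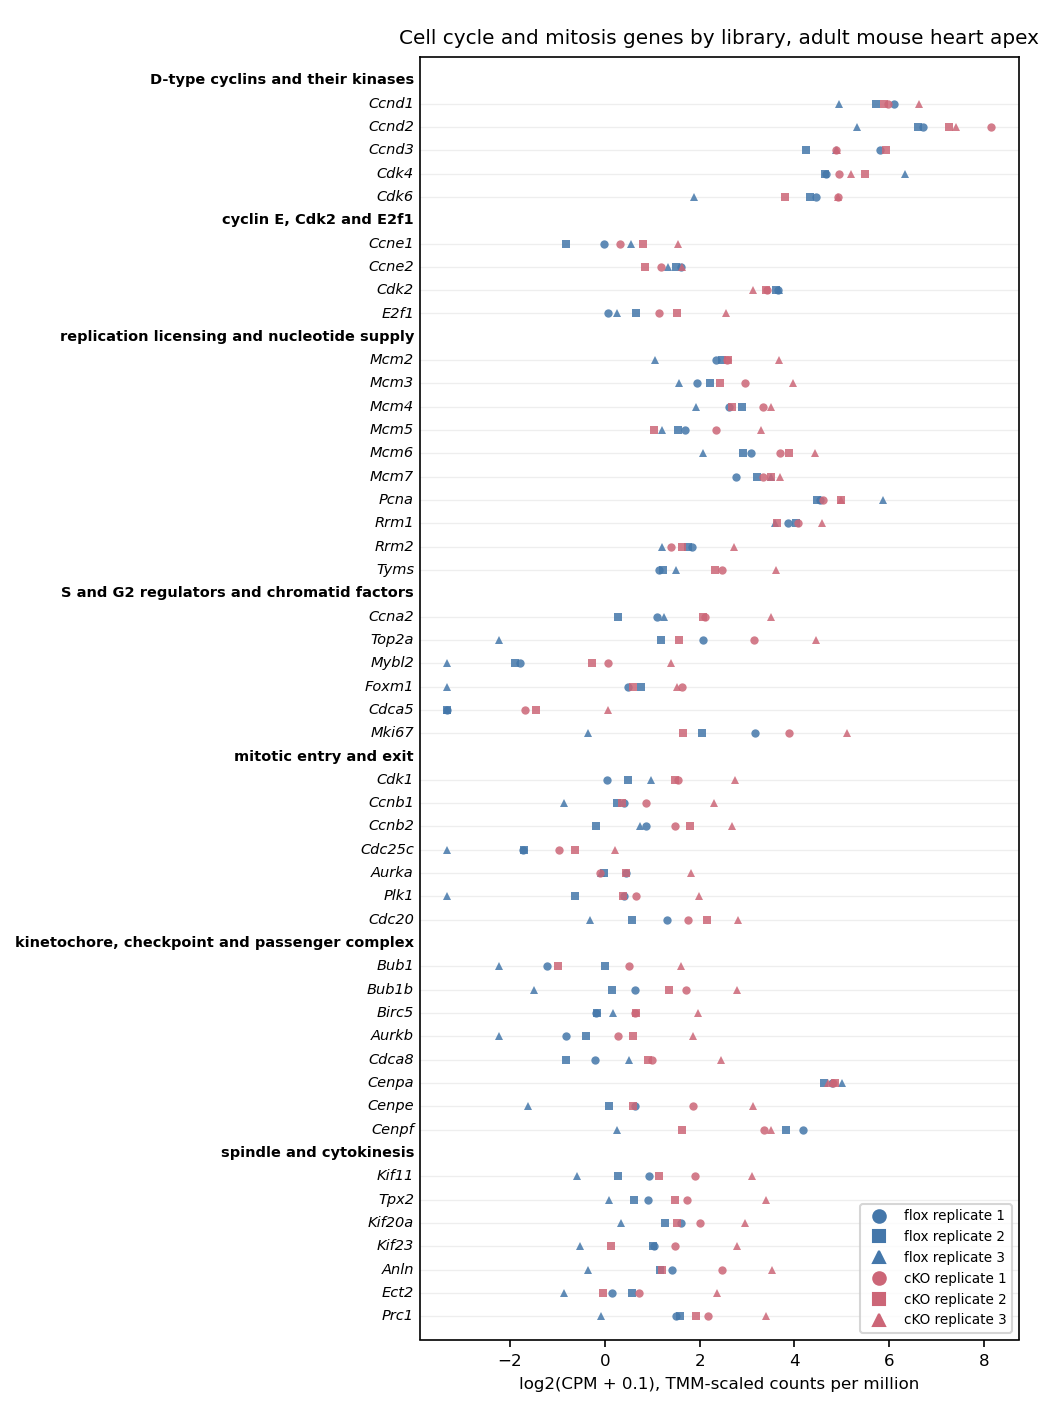
Level of each gene in each of the 6 heart libraries, as log2(CPM + 0.1) on the x axis, with genes in role order on the y axis (blue: flox, red: cKO, symbol: replicate). cKO replicate 3 (red triangles) lies furthest right for 38 of the 47 genes, and flox replicate 3 (blue triangles) furthest left for 29.

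The D-type cyclins and their kinases drive the passage through G1. These were among the most abundant of the genes per kilobase of transcript in flox hearts, with Cdk4 at 21.2, Ccnd1 at 13.5 and Ccnd2 at 12.7 CPM per kb, next to Pcna at 22.8. Values per library are given below in the order of replicates 1, 2 and 3. Ccnd2 was at 104, 97.2 and 39.9 CPM in flox and 284, 153 and 169 CPM in cKO hearts. All cKO hearts lay above all flox hearts, with a log2 fold change of 1.33 ± 0.49 (SE, adjusted p = 0.271 in edgeR's test), and Ccnd2 was called without flox replicate 3 and cKO replicate 2 (1.17, adjusted p = 0.0320). Ccnd1 was at 68.3, 52.9 and 30.5 CPM in flox and 63.1, 59.0 and 98.1 CPM in cKO. These groups overlap, and the log2 fold change was 0.54 ± 0.41. Ccnd3 (0.21 ± 0.51), Cdk4 (-0.22 ± 0.53) and Cdk6 (0.70 ± 0.67) also overlapped, with Cdk4 highest and Cdk6 lowest in flox replicate 3. For all 5 of these genes the annotation holds another gene's exon on the opposite strand, and Ccnd2 shares 368 and 372 of its 9409 exonic bases with a pair of antisense genes (9330179D12Rik and Gm43126). The sources used here do not give the strand setting of the counting.

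Cyclin E with Cdk2 acts at the G1 to S transition, and E2f1 is the activator that turns on the replication genes. E2f1 was at 0.942, 1.47 and 1.10 CPM in flox and 2.11, 2.77 and 5.82 CPM in cKO hearts. The groups do not overlap, and the log2 fold change was 1.61 ± 0.49 (adjusted p = 0.199 in edgeR's test). Ccne1 had a log2 fold change of 1.06 ± 0.57 and Ccne2 one of -0.25 ± 0.36, both with overlapping groups. Cdk2, the kinase of cyclins E and A, was at 12.5, 12.2 and 12.6 CPM in flox and 10.6, 10.4 and 8.59 CPM in cKO. It was the only one of the 47 genes with all cKO hearts below all flox hearts, at a log2 fold change of -0.34 ± 0.26, which scaling by total counts alone turns to 0.23, below the shift of all genes.

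Among the 10 genes of replication licensing and nucleotide supply, 9 had higher values in cKO and the median log2 fold change was 0.83. Mcm2 to Mcm7 form the replicative helicase. Mcm6 was at 8.32, 7.39 and 4.09 CPM in flox and 12.9, 14.7 and 21.4 CPM in cKO, and Mcm3 at 3.74, 4.57 and 2.88 CPM in flox and 7.63, 5.28 and 15.6 CPM in cKO. Neither gene's groups overlap, with log2 fold changes of 1.30 ± 0.38 and 1.35 ± 0.47. Mcm2 was at 4.95, 5.42 and 1.98 CPM in flox and 5.91, 5.94 and 12.6 CPM in cKO, again without overlap (0.98 ± 0.51). Mcm4 (0.68 ± 0.38), Mcm5 (1.02 ± 0.58) and Mcm7 (0.33 ± 0.31) overlapped. Tyms, the thymidylate synthase, was at 2.12, 2.23 and 2.74 CPM in flox and 5.45, 4.93 and 12.1 CPM in cKO hearts. Its lowest cKO heart was above its highest flox heart, the log2 fold change was 1.67 ± 0.44 (adjusted p = 0.144 in edgeR's test), and it was called by DESeq2 (adjusted p = 0.0279), by voom with quality weights (0.00712) and without flox replicate 3 and cKO replicate 2 (0.0228). Rrm1 and Rrm2, the subunits of ribonucleotide reductase, overlapped at 0.31 ± 0.34 and 0.42 ± 0.46. Pcna, the sliding clamp, was at 23.1, 22.1 and 58.5 CPM in flox and 24.2, 31.7 and 31.7 CPM in cKO. Its log2 fold change was -0.24 ± 0.45 with flox replicate 3 and 0.37 without that heart. The sign also turned positive on all 6 hearts with total counts alone and with voom.

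The S and G2 regulators and chromatid factors had the highest median of all roles, at 2.15, with all 6 genes higher. Their summed level was 16.5, 9.09 and 3.08 CPM in flox and 31.8, 12.4 and 73.8 CPM in cKO, which overlap. Ccna2, cyclin A2 of S and G2, was at 2.05, 1.12 and 2.29 CPM in flox and 4.22, 4.08 and 11.2 CPM in cKO. The groups are separate, with a log2 fold change of 1.84 ± 0.54 (adjusted p = 0.178 in edgeR's test), and Ccna2 was called by DESeq2, by voom and without the 2 libraries. Mybl2 (B-Myb) was at 0.191, 0.169 and 0 CPM in flox and 0.955, 0.725 and 2.54 CPM in cKO hearts, from 15, 13 and 0 counts against 91, 57 and 227. All cKO values are above all flox values (3.45 ± 1.05, adjusted p = 0.195 in edgeR's test), and DESeq2 gave an adjusted p of 0.00506.

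Cdca5, known as sororin, protects the cohesion of sister chromatids. It had no count in any flox heart and 20, 21 and 85 counts in the cKO hearts, or 0.210, 0.267 and 0.950 CPM. Taking a floor of 3 counts per flox library, its mean level was at least 8.82-fold higher in cKO (adjusted p = 0.123 in edgeR's test). Top2a, the topoisomerase that untangles chromatids, was at 4.13, 2.18 and 0.113 CPM in flox and 8.80, 2.84 and 21.8 CPM in cKO. Mki67, the proliferation marker Ki-67, was at 8.87, 4.02 and 0.678 CPM in flox and 14.6, 3.05 and 34.5 CPM in cKO. For both genes cKO replicate 2 fell within the flox range, and the log2 fold changes were 2.36 ± 1.15 and 1.94 ± 1.07. Foxm1, the partner of B-Myb in mitotic transcription, had no count in flox replicate 3 and overlapped elsewhere (1.28 ± 1.16).

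All 7 genes of mitotic entry and exit had higher values in cKO hearts, with a median log2 fold change of 1.60. Cdk1, the mitotic kinase, was at 0.929, 1.30 and 1.86 CPM in flox and 2.81, 2.68 and 6.64 CPM in cKO hearts. No cKO heart came down to the flox level (1.57 ± 0.51, adjusted p = 0.222 in edgeR's test). Ccnb2, a B-type cyclin that binds Cdk1, was at 1.74, 0.778 and 1.58 CPM in flox and 2.69, 3.39 and 6.36 CPM in cKO, also without overlap (1.60 ± 0.50, adjusted p = 0.208 in edgeR's test). Ccnb1 was at 1.23, 1.10 and 0.452 CPM in flox and 1.73, 1.18 and 4.86 CPM in cKO, and cKO replicate 2 lay between the flox hearts (1.47 ± 0.68). Cdc20, which activates the anaphase-promoting complex, was separate at 1.69 ± 0.54. Cdc25c, the phosphatase that switches on Cdk1, was separate at 2.22 ± 1.07 with no count in flox replicate 3. Aurka (0.87 ± 0.61) and Plk1 (1.85 ± 1.19), kinases of the centrosome and of mitotic entry, overlapped.

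In the kinetochore, checkpoint and passenger group, 6 of 8 genes had higher values, with a median log2 fold change of 1.80. Bub1b, the checkpoint kinase-like protein BubR1, was at 1.46, 1.01 and 0.254 CPM in flox and 3.20, 2.44 and 6.84 CPM in cKO. These groups are apart (2.17 ± 0.71, adjusted p = 0.224 in edgeR's test), and Bub1b was called by DESeq2, by voom and without the 2 libraries. The chromosomal passenger genes Aurkb (2.24 ± 0.76), Birc5 (1.39 ± 0.52) and Cdca8 (1.83 ± 0.64) were each separate between the groups. Cenpe, the kinetochore motor, gave 2.34 ± 0.86 and Bub1 1.76 ± 0.95, both with overlap. The 2 genes with lower values were Cenpf (-0.44 ± 0.93) and Cenpa, the centromeric histone (-0.02 ± 0.27), whose level of 24.7 to 31.9 CPM over the 6 hearts far exceeded that of its neighbours in the group apart from Cenpf.

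The 7 spindle and cytokinesis genes all had higher values in cKO hearts, with a median log2 fold change of 1.50, and all were lowest in flox replicate 3 and highest in cKO replicate 3. Tpx2, which activates Aurora A on the spindle, was at 1.78, 1.44 and 0.960 CPM in flox and 3.25, 2.68 and 10.5 CPM in cKO. Its groups do not overlap (1.97 ± 0.62, adjusted p = 0.206 in edgeR's test). Kif11, the motor that pushes the spindle poles apart, was at 1.81, 1.12 and 0.565 CPM in flox and 3.63, 2.10 and 8.56 CPM in cKO, and Prc1, the midzone bundler, was likewise separate (2.02 ± 0.67 and 1.50 ± 0.62). Anln (1.81 ± 0.73), Ect2 (1.38 ± 0.76), Kif23 (1.23 ± 0.78) and Kif20a (1.16 ± 0.53), genes of the cleavage furrow and midbody, overlapped. Kif20a shares 1271 of its 4338 exonic bases with Cdc23 on the opposite strand and Prc1 shares 911 with Rccd1.

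Related genes outside the 47 were read from lists of other members of the pathway, none of which held a gene called by edgeR on all 6 hearts. Of 44 other mitotic genes tested, 39 had higher values, the median log2 fold change was 1.56 and 13 were higher at an unadjusted p under 0.05, against 8.22% of all genes tested. DESeq2 called 7 of them higher, against 2.75% of all genes, and voom 15, against 21.3% called in either direction. EdgeR without flox replicate 3 called Cdca3 and Ube2c, against 4.26%, and so did edgeR with the length offset. The smallest p values there belonged to Ube2c (1.08, 1.28 and 1.61 against 3.58, 5.39 and 6.94 CPM), Cdca3 (2.48 ± 0.51), Dlgap5 (2.70 ± 0.65) and Ndc80 (2.76 ± 0.69), each without overlap. Of 38 other replication genes, 25 had higher values at a median of 0.36. Gmnn, whose product geminin blocks relicensing, went the other way, at 20.7, 22.4 and 68.2 CPM in flox and 6.58, 12.3 and 8.93 CPM in cKO (-2.00 ± 0.56, adjusted p = 0.167 in edgeR's test, and 0.0478 without flox replicate 3). The list of 17 other E2F, DREAM and MuvB factors, which also holds Myc, Mycn and Fzr1, had a median of 0.05. Myc, which belongs to none of these 3 families, stood out in the list. It was at 1.97, 1.86 and 0.903 CPM in flox and 6.14, 5.42 and 4.98 CPM in cKO (1.80 ± 0.40, adjusted p = 0.105 in edgeR's test, and 0.0219 without flox replicate 3).

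The list of CDK inhibitors and pocket proteins also holds Wee1, Pkmyt1, Btg1, Btg2, Ccng1, Ccng2 and Gadd45a. Of its 18 genes tested, 11 had higher and 7 lower values in cKO hearts, with a median of 0.34. Cdkn1a, the p21 inhibitor, was at 69.9, 52.0 and 113 CPM in flox and 57.4, 90.7 and 50.1 CPM in cKO, which overlap (-0.24 ± 0.41). Cdkn2b, the inhibitor p15, was at 0.458, 0.376 and 0.254 CPM in flox and 0.818, 2.62 and 1.87 CPM in cKO (2.27 ± 0.59), while Ccng1, a target of p53, was at 804, 825 and 1914 CPM in flox and 325, 361 and 475 CPM in cKO (-1.61 ± 0.49, adjusted p = 0.195 in edgeR's test, and 0.0448 without flox replicate 3). Neither gene's groups overlap.

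Markers of other cell types differed between the hearts as well. The 7 activated fibroblast markers summed to 300, 404 and 454 CPM in flox and 1082, 872 and 2986 CPM in cKO. EdgeR called Meox1 and Comp higher (adjusted p = 0.0387 and 0.0388), against 0.508% of all genes tested called in either direction. The highest heart was cKO replicate 3 for 6 of the 7. Acta2 went the other way (-1.30), with all cKO hearts below all flox hearts. DESeq2 and voom each called 5 of the 7 higher and Acta2 lower. Over all genes DESeq2 called 2.75% higher, and voom called 21.3% in either direction. The 9 macrophage and monocyte markers summed to 424, 406 and 848 CPM in flox and 865, 1065 and 1209 CPM in cKO, with Ccr2 called higher (adjusted p = 0.0493 in edgeR's test). Fibroblast markers summed to 2443, 2470 and 1405 CPM against 3825, 3810 and 5534 CPM, with 0 of 8 called by edgeR, 5 higher at an unadjusted p under 0.05, against 8.22% of all genes tested, and 4 called higher by DESeq2, against 2.75%. Cardiomyocyte markers summed to 43312, 41810 and 47423 CPM against 26926, 23418 and 27362 CPM. Median log2 fold changes were 3.31, 1.04, 1.29 and -0.92 for these lists, and -0.28, 0.23 and 0.03 for endothelial, smooth muscle and pericyte, and lymphocyte and neutrophil markers. Of the smooth muscle markers edgeR called Cnn1 higher, at 1.50, 0.934 and 2.29 CPM in flox and 14.2, 14.5 and 15.0 CPM in cKO (3.22 ± 0.40, adjusted p = 0.0387 in edgeR's test). Without flox replicate 3 and cKO replicate 2, edgeR called higher 5 of 7 activated fibroblast, 9 of 9 macrophage and monocyte and 7 of 8 fibroblast markers, against 9.54% of all genes tested, and 5 of 8 cardiomyocyte markers lower, against 9.53%. The part of these cells in the levels of the cell cycle genes was not tested.

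**Figure D2:**
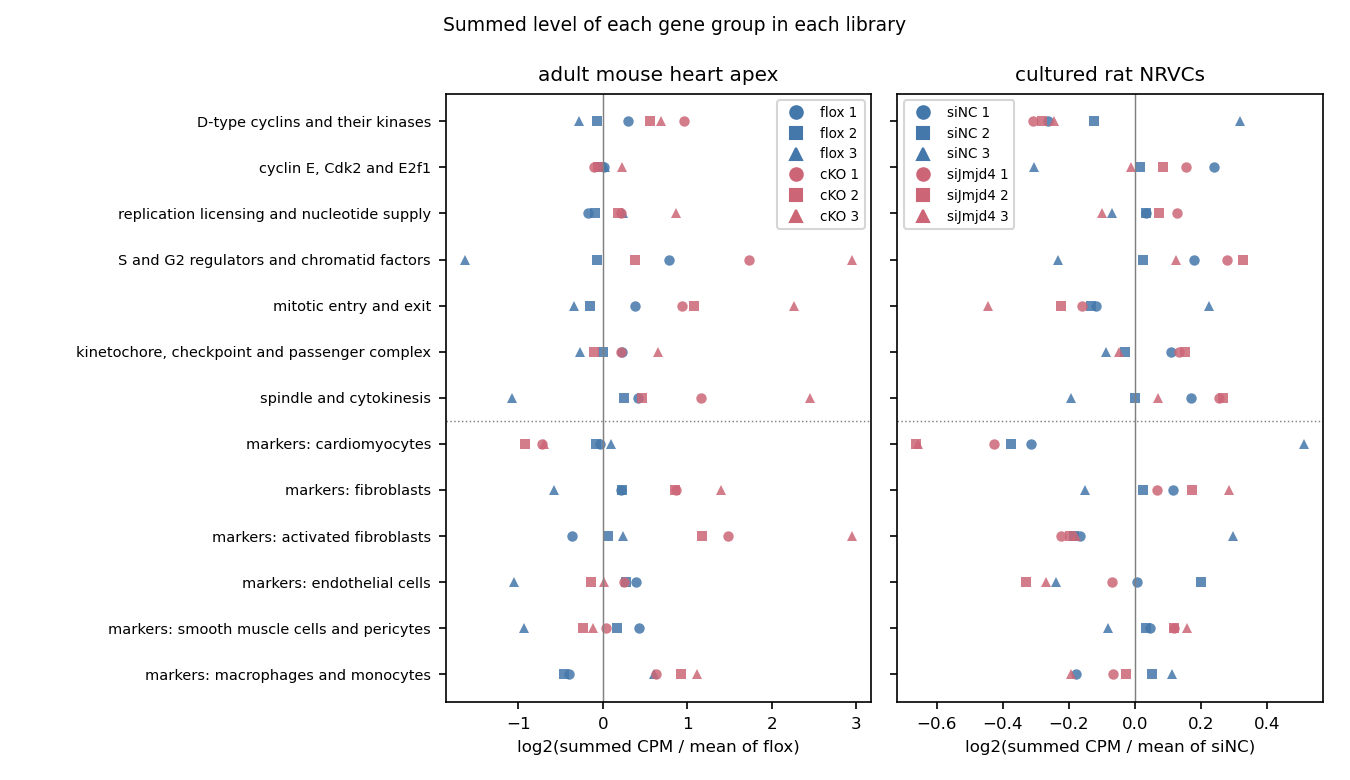
Summed CPM of each role group and of each list of cell type markers, per library, as log2 of the ratio to the mean of the 3 control libraries (blue: control group, red: cKO or siJmjd4, symbol: replicate). In the hearts cKO replicate 3 lies furthest right for every role group but the D-type cyclins. The same holds for both lists of fibroblast markers and for the macrophage and monocyte markers. In the NRVCs the 6 libraries lie closer together for the S and G2, mitotic entry and spindle groups. Cardiomyocyte markers there range from 4338 to 9788 CPM, highest in siNC replicate 3.

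In the NRVCs these genes stood at far higher levels and differed little between the libraries labelled siJmjd4 and siNC. The median of the gene means was 48.5 CPM in siNC and 63.0 CPM in siJmjd4, and no gene had a mean under 1 CPM, where 14 did in flox hearts. By edgeR's quasi-likelihood test 0 of the 45 genes were called, against 0.00645% of the 15497 genes tested, and 2 were higher at an unadjusted p under 0.05, against 5.79%. DESeq2 also called 0, against 0.789%, and voom with quality weights called 3 higher (Anln, Ccnd2 and Tyms), against 6.29%. The fitted value was higher for 24 genes, against 50.3% of all genes tested, and lower for 21, with a median log2 fold change of 0.09, against 0.01 for all genes tested. All siJmjd4 libraries lay above all siNC libraries for 10 genes, against 22.4% of all genes tested, and below them for 7, against 17.8%. The median deviation of the genes per library ranged from -0.09 to 0.13 on the log2 scale, against -1.28 to 1.46 in the hearts.

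**Figure D3:**
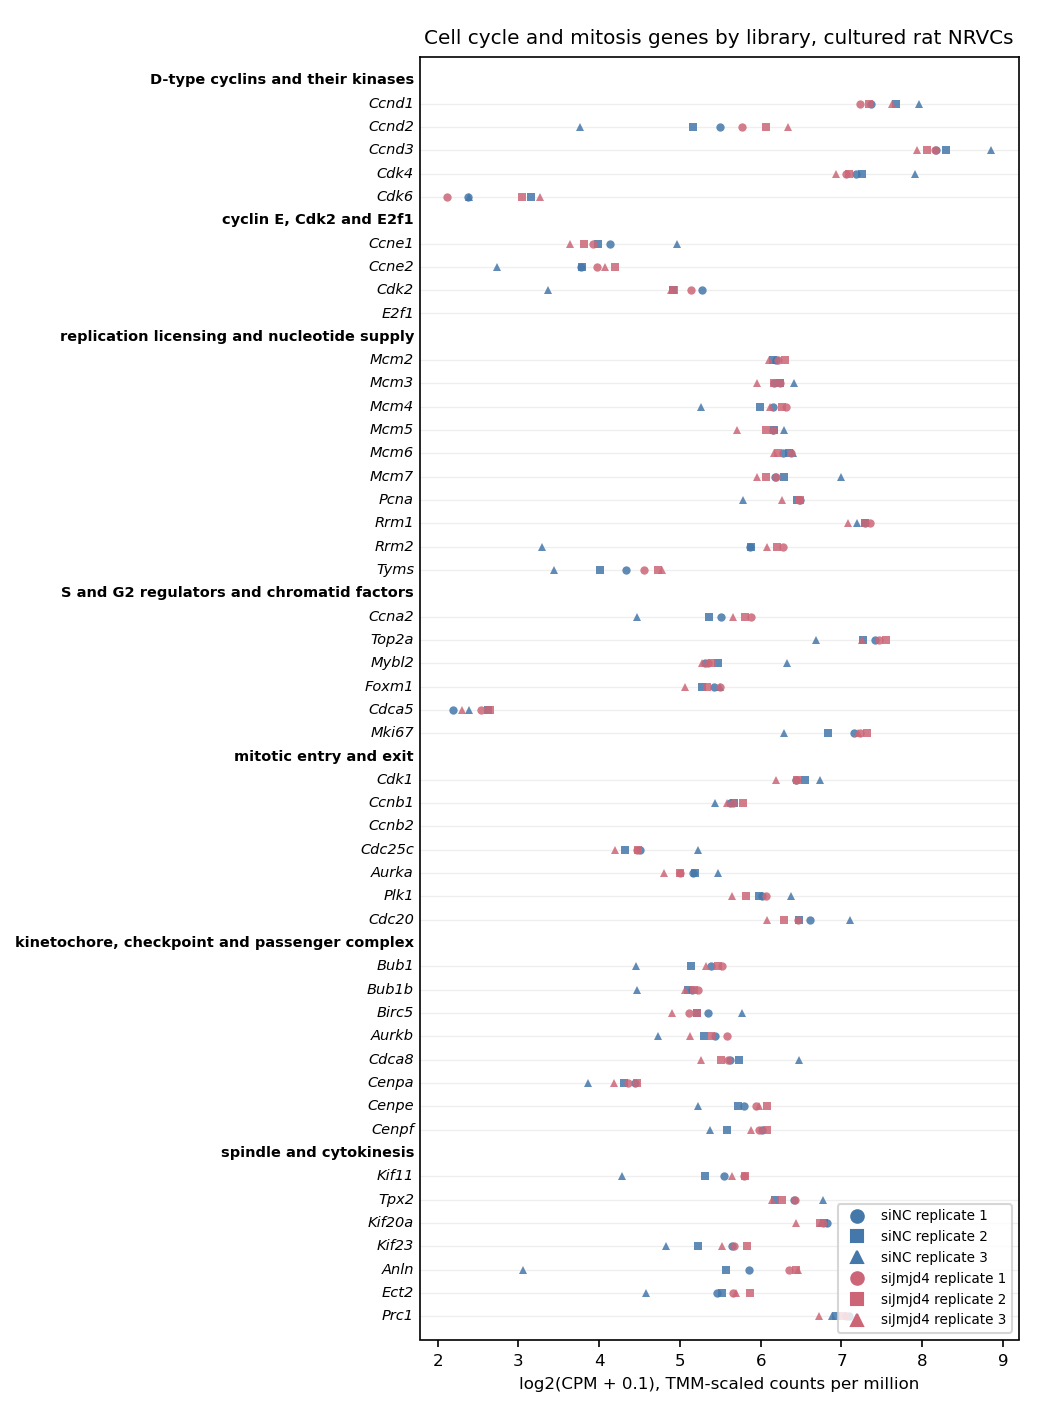
Level of each gene in each of the 6 NRVC libraries, as log2(CPM + 0.1) on the x axis, with genes in role order on the y axis (blue: siNC, red: siJmjd4, symbol: replicate). Points of many genes lie close together, but some spread widely, such as Anln (8.21 to 88.2 CPM) and Rrm2 (9.67 to 77.7 CPM). SiNC replicate 3 (blue triangles) is lowest for 21 of the 45 genes, against 43.6% of all genes tested, and highest for 18. SiJmjd4 replicate 3 (red triangles) is lowest for 21 as well.

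The 2 NRVC genes past an unadjusted p of 0.05 were Ccnd2 and Tyms. Ccnd2 was at 45.1, 35.8 and 13.5 CPM in siNC and 54.3, 67.0 and 81.0 CPM in siJmjd4, without overlap (1.10 ± 0.44, adjusted p = 0.379 in edgeR's test). Tyms was at 20.1, 16.0 and 10.8 CPM in siNC and 23.4, 26.4 and 27.4 CPM in siJmjd4, also without overlap (0.72 ± 0.26, adjusted p = 0.379 in edgeR's test). Both genes also had separate groups and higher values in cKO hearts, as did 20 of the 47 genes there, against 14.9% of all genes tested. Anln, the furrow protein anillin, was at 57.9, 47.4 and 8.21 CPM in siNC and 81.3, 86.2 and 88.2 CPM in siJmjd4 (1.17 ± 0.63). Its siNC spread is that of replicate 3, and without that library edgeR called Anln higher (0.69, adjusted p = 0.0359), the only one of the 45 genes, against 0.487% of all genes tested called higher.

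Within G1, the other D-type cyclins and kinases had lower or level values in the NRVCs. Ccnd1 was at 165, 204 and 248 CPM in siNC and 150, 162 and 198 CPM in siJmjd4, with overlap (-0.27 ± 0.20). Ccnd3 (-0.42 ± 0.22) and Cdk4 (-0.46 ± 0.23) were below siNC in all siJmjd4 libraries, and Cdk6 overlapped (0.20 ± 0.39). Of the cyclin E genes, Ccne1 was at 17.5, 15.7 and 31.0 CPM in siNC and 15.1, 14.0 and 12.3 CPM in siJmjd4 (-0.63 ± 0.30), while Ccne2 had higher values in all siJmjd4 libraries (0.58 ± 0.31). Cdk2 overlapped (0.27 ± 0.45).

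The helicase genes were nearly level. Mcm2 was at 73.1, 70.8 and 72.0 CPM in siNC and 74.4, 79.0 and 68.9 CPM in siJmjd4 (0.04 ± 0.13), and Mcm3 to Mcm7 had log2 fold changes from -0.46 (Mcm7) to 0.38 (Mcm4), all with overlap. Pcna was at 89.3, 87.5 and 55.1 CPM in siNC and 88.5, 89.3 and 76.6 CPM in siJmjd4, so the siNC value that differed was replicate 3 (0.13 ± 0.22). Rrm2 was likewise far lower in siNC replicate 3, at 9.67 CPM against 58.3 and 58.6 CPM (0.79 ± 0.61), and Rrm1 was level (-0.01 ± 0.14).

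Among the S, G2 and mitotic genes of the NRVCs, Ccna2 was at 45.6, 40.9 and 22.0 CPM in siNC and 58.8, 55.9 and 50.4 CPM in siJmjd4 (0.60 ± 0.28). Mki67 was at 142, 114 and 78.1 CPM in siNC and 150, 159 and 147 CPM in siJmjd4 (0.45 ± 0.23). In both genes the groups were separate, with adjusted p = 0.379 in edgeR's test. Top2a, at 170, 154 and 103 CPM in siNC and 176, 188 and 153 CPM in siJmjd4, overlapped (0.28 ± 0.22), as did Mybl2 (-0.44 ± 0.29), Foxm1 (-0.10 ± 0.17) and Cdca5 (0.09 ± 0.23). The 6 mitotic entry genes leaned the other way, with a median log2 fold change of -0.31. Of these, 5 were highest in siNC replicate 3 and 5 lowest in siJmjd4 replicate 3, and without siNC replicate 3 the median was -0.14. Cdc20 was at 97.9, 88.6 and 138 CPM in siNC and 88.4, 77.8 and 67.7 CPM in siJmjd4, below siNC in every library (-0.47 ± 0.21), as was Aurka (-0.34 ± 0.16). Cdk1, at 86.5, 93.7 and 106 CPM in siNC and 86.5, 87.3 and 72.9 CPM in siJmjd4, touched the siNC range (-0.21 ± 0.15), and Ccnb1 was level at 49.0, 50.8 and 43.0 CPM in siNC and 50.4, 55.1 and 48.0 CPM in siJmjd4 (0.10 ± 0.15). Plk1 (-0.28 ± 0.19) and Cdc25c (-0.36 ± 0.27) overlapped.

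Cenpe was at 55.5, 52.5 and 37.4 CPM in siNC and 61.1, 67.6 and 62.9 CPM in siJmjd4, above siNC throughout (0.40 ± 0.19). Birc5 (-0.38 ± 0.20) and Cdca8 (-0.53 ± 0.26) were below siNC throughout, while Bub1, Bub1b, Aurkb, Cenpa and Cenpf overlapped with log2 fold changes from 0.12 to 0.40. Of the spindle genes, Kif11 was at 46.6, 39.7 and 19.3 CPM in siNC and 55.3, 56.0 and 50.1 CPM in siJmjd4 (0.61 ± 0.32), separate like Ect2 (0.49 ± 0.27), and Tpx2, Kif20a, Kif23 and Prc1 overlapped. Leaving out siNC replicate 3 and siJmjd4 replicate 1, edgeR called Anln, Ccnd2 and Tyms higher, against 10.6% of all genes tested, and Ccnd3 and Cdc20 lower, against 5.18%.

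The related lists had 0 genes called by edgeR on all 6 NRVC libraries, against 0.00645% of all genes tested. By the same test 2 were higher at an unadjusted p under 0.05, against 5.79%. DESeq2 called E2f3 alone, against 0.789%. Voom called Rb1, E2f3, Lin54, Lig1, Kif14, Knl1 and Smc2 higher, against 6.29%, and 0 lower. Without siNC replicate 3 and siJmjd4 replicate 1 edgeR called higher 2 E2F, DREAM and MuvB factors (E2f3 and Lin54), 2 CDK inhibitors and pocket proteins, 1 replication gene and 3 mitotic genes, against 10.6% of all genes tested, and lower 1 CDK inhibitor or related gene, 3 replication genes and 2 mitotic genes, against 5.18%. Median log2 fold changes were 0.04 for 44 other mitotic genes and -0.05 for 38 other replication genes. They were 0.46 for the 17 genes of the E2F, DREAM and MuvB list and 0.23 for 17 genes of the CDK inhibitor and pocket protein list. The smallest p was that of E2f3, an activator E2F, at 3.45, 4.35 and 3.74 CPM in siNC and 6.95, 7.43 and 8.83 CPM in siJmjd4 (1.01 ± 0.22, adjusted p = 0.379 in edgeR's test). Its adjusted p was 0.00851 by DESeq2, 0.0348 by voom and 0.0114 in edgeR's test without those 2 libraries. Lin54, the DNA-binding subunit of MuvB, followed at 0.68 ± 0.24. Cdkn1a was at 84.8, 99.6 and 191 CPM in siNC and 89.7, 87.2 and 81.1 CPM in siJmjd4 (-0.54 ± 0.32). Cardiomyocyte markers, at a median of -0.52, summed to 5520, 5290 and 9788 CPM in siNC and 5106, 4338 and 4351 CPM in siJmjd4, and fibroblast markers to 42430, 39861 and 35307 CPM against 41030, 44224 and 47796 CPM. Without siNC replicate 3 and siJmjd4 replicate 1 edgeR called 6 of the 7 cardiomyocyte markers lower. Their part in the values of the cell cycle genes was not tested. The other marker lists had medians of 0.12 (activated fibroblasts), -0.26 (endothelial), 0.18 (smooth muscle and pericytes) and 0.00 (macrophages and monocytes), with 0 genes called by edgeR on all 6 libraries, and 1 of the lymphocyte and neutrophil markers could be tested (0.07).

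The responses of both systems were compared in 1 edgeR model of all 12 libraries over the 11846 genes paired by symbol. The difference (NRVC log2 fold change minus heart log2 fold change) was below 0 for 39 of the 45 genes, with a median of -1.29, against 0.04 over all genes. In edgeR's quasi-likelihood test of the difference 2 of the 45 were called, against 2.25% of all genes, and 15 had an unadjusted p under 0.05, against 16.1%. The genes called by edgeR were Mybl2 (-3.81 ± 0.88, adjusted p = 0.0498) and Cdca5 (adjusted p = 0.0184), whose fitted difference of -8.28 rests on the empty flox libraries and is no measure of size. The next smallest p values were those of Cdc20 (-2.15 ± 0.58), Cdca8 (-2.38 ± 0.68) and Cdk1 (-1.80 ± 0.52). For Ccnd2 the difference was -0.23 ± 0.67 and for Anln -0.63 ± 1.00, both within their error. The systems differ in species, age, cell composition, annotation and kind of perturbation, and these cannot be told apart. Without flox replicate 3, 7 of the 45 were called, against 8.45% of all genes, while leaving out any other single library gave 1, or 0 where it was a siJmjd4 library. Without that library, cKO replicate 2, siNC replicate 3 and siJmjd4 replicate 1 together, 18 were called, against 26.0%. DESeq2 called 9, against 6.88%, and voom with quality weights 24, against 30.2%.

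**Figure D4:**
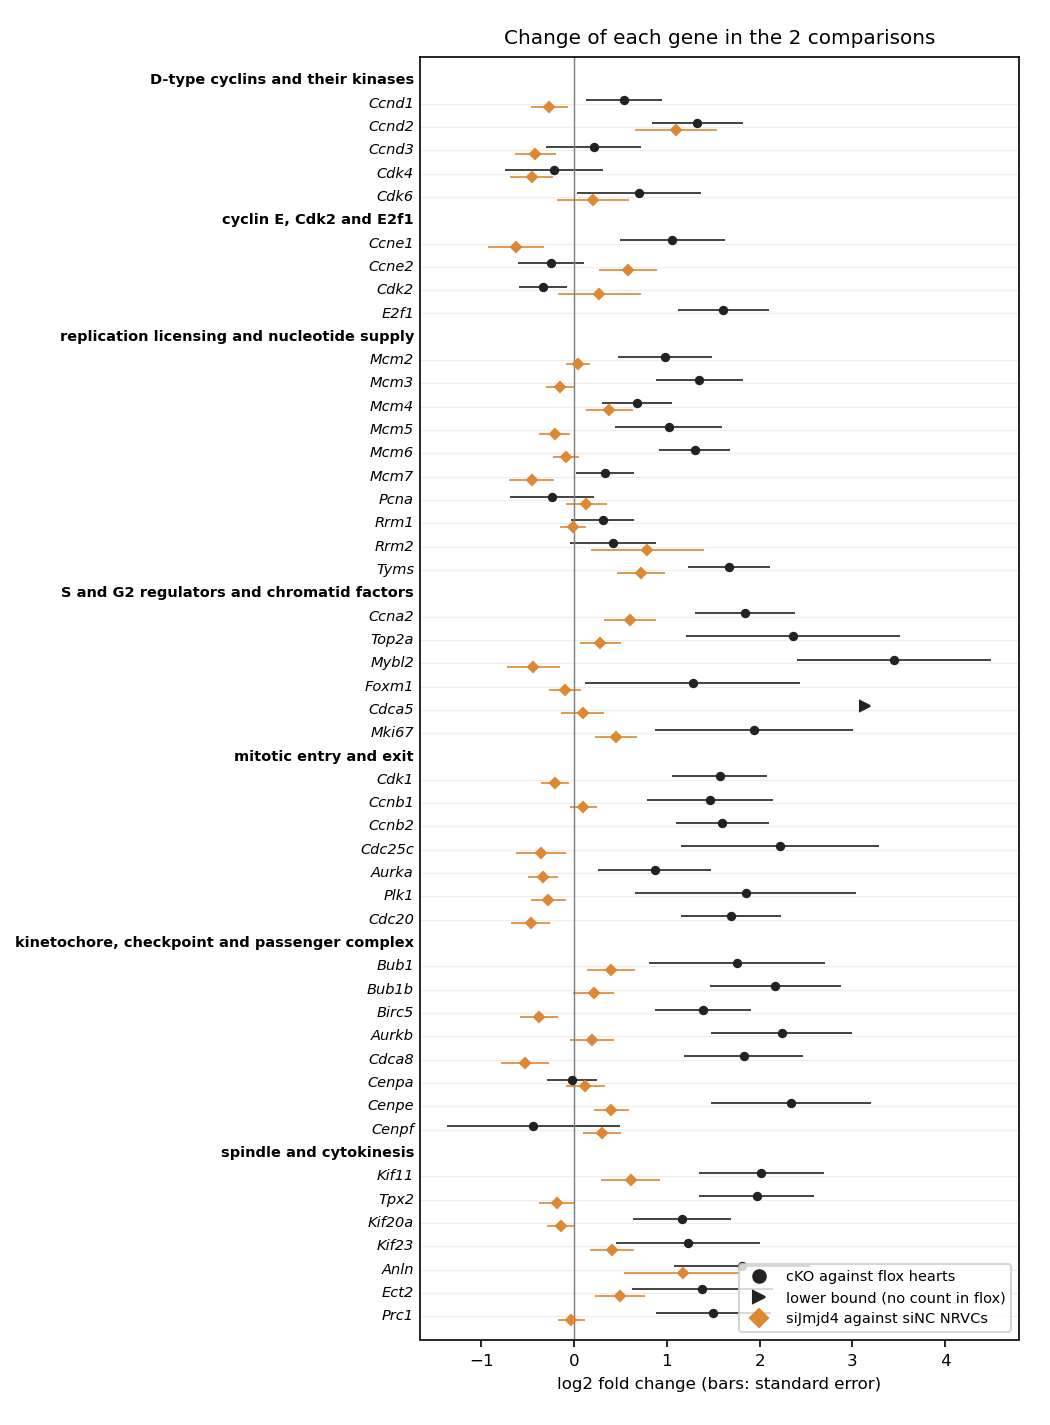
Log2 fold change of each gene (x axis, bars: standard error) in cKO against flox hearts (black circles) and siJmjd4 against siNC NRVCs (orange diamonds), in role order, with the lower bound for Cdca5 in hearts as an arrowhead. Heart values lie right of 0 for 41 of 47 genes and furthest right in the S, G2 and mitotic groups, whereas NRVC values fall on both sides of 0.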

How the data were processed

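RNA-seq was read from 12 libraries in 4 groups of 3. The authors deposited 1 table of gene counts per species, whole numbers per symbol that were not normalized. The submitters' processing notes name HISAT2 2.1.0, StringTie 1.3.4, edgeR 3.20.9 and the builds mm10 and rn6, with no role or order, and the annotation, counting rules and strand are not stated. Libraries of a group differed by more than sampling noise (chi-square of 26.1 to 1580 per degree of freedom), so each was kept as a replicate.

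From the counts, filterByExpr kept 18094 heart and 15497 NRVC genes. Each comparison was fitted on its own 6 libraries with edgeR 4.0.16 (R 4.3.3), using TMM scaling and the robust quasi-likelihood test, two-sided, with Benjamini-Hochberg adjustment. Alternatives were DESeq2 1.42.0 and its size factors, limma 3.58.1 (voom with quality weights), total counts, no filter or a stricter one (mean CPM of 5 or more), a replicate block, a length offset, mitochondrial genes left out, and libraries left out. DESeq2 was run without that filter. Its shares are over all genes with a fold change, 28130 in the hearts, 19512 in the NRVCs and 14976 for the difference. The fits were tested on simulated counts. Lengths (GENCODE M21, GRCm38) covered 80% of tested heart genes and 84% of NRVC genes, the latter with mouse lengths matched by symbol. Promoters are from RefSeq. An exact permutation test of 3 against 3 cannot go below 0.1 and was not used. A floor of 3 counts per library stands in for a group at 0.

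The members and lists were chosen with earlier results of these data known. Values per library are given for Mki67, Top2a, Cdk1, Ccna2, Ccnb1, Ccnd1, Ccnd2, E2f1, Pcna, Mcm2, Cdkn1a, the smallest p of each role and up to 3 called genes per role, and other lists are represented by up to 4 of their smallest p values. Anln, Ccne1, Ccnb2, Mcm3, Gmnn and some others were added after their values were seen.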

Additional observations from a re-analysis of the deposited data

Results flagged for a closer look

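Cdca5 and Mybl2 are listed because edgeR's test of the difference between the systems passed for them. For Cdca5 the fitted difference, NRVC minus heart, was -8.28 (adjusted p = 0.0184 in edgeR's test). That value rests on flox libraries with no count and is no bound. The mean level was at least 8.82-fold higher in cKO than in flox hearts, and the NRVC log2 fold change was 0.09. The call was lost with a replicate block (adjusted p = 0.119 in edgeR's test) and without any 1 of the siJmjd4 libraries (0.0553, 0.0598 and 0.0693).

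For Mybl2 the difference was -3.81 ± 0.88 (adjusted p = 0.0498 in edgeR's test), from log2 fold changes of 3.45 in the hearts and -0.44 in the NRVCs. The call was lost with total counts alone (0.0661), with no filter on low counts (0.0559) and with a replicate block (0.347). Leaving out 1 library gave adjusted p values in edgeR's test of 0.0199 to 0.147, and the call held only without flox replicate 3.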

How the results depend on the processing

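The sources used here state no strand setting, and several of these genes overlap another gene on the opposite strand. In flox hearts 14 of the 47 genes had a mean under 1 CPM, where few counts limit what can be called. The controls lack Cre.

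In the hearts edgeR called 0 of the 47 genes under each alternative scaling, filter and block and without any 1 library. DESeq2 called 8 higher, voom with quality weights 21, and edgeR without flox replicate 3 and cKO replicate 2 called 15. The heart median stayed positive in every alternative run. It was 0.71 over the genes left with a mean of at least 5 CPM, a filter that drops low genes such as Cdca5 and Mybl2. Without 1 library it was 0.90 to 1.67. In the NRVCs voom called 3 higher, leaving out siNC replicate 3 and siJmjd4 replicate 1 gave 3 higher and 2 lower, and leaving out 1 library gave 0 to 1 higher, the 1 being without siNC replicate 3. The NRVC median was 0.19 with total counts alone, -0.17 with the length offset, -0.08 without both of those libraries, and -0.03 to 0.16 without 1 library. For the difference between the systems edgeR called 2 genes (Cdca5 and Mybl2), and 1 with no filter. With a mean of at least 5 CPM it called 0, but those 2 genes lie under that level in the hearts and were not tested. EdgeR called 4 with the length offset, and 0 to 7 without 1 library. Without flox replicate 3, cKO replicate 2, siNC replicate 3 and siJmjd4 replicate 1 it called 18, while DESeq2 called 9 and voom 24.

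Correlations between the samples did not follow the replicate numbers. Deviations of same-numbered samples correlated at 0.357, -0.479 and -0.331 in the hearts and -0.142, -0.0188 and -0.15 in the NRVCs, and not every sample correlated best with its own number. In the hearts the highest value was 0.552, for flox replicate 3 with cKO replicate 2, which both gave less signal to long transcripts. These values therefore cannot decide whether the numbers pair the samples. With a replicate block 0 genes were called in the hearts, 0 in the NRVCs and 0 for the difference, and Cdk4 in the hearts moved to 0.00.

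The log2 fold change changed sign in at least 1 alternative for 10 of 48 heart genes and 17 of 46 NRVC genes (members and Cdkn1a), and the cause was not tested. With total counts alone the heart values were 0.66 (Cdk4), 0.31 (Ccne2), 0.23 (Cdk2), 0.58 (Pcna), 0.59 (Cenpa) and 0.46 (Cdkn1a), and the NRVC values 0.01 (Mcm6), 0.08 (Rrm1), 0.01 (Foxm1) and 0.06 (Prc1). With voom they were 0.45 (Cdk4), 0.31 (Pcna) and 0.06 (Cenpa) in hearts and -0.07 (Cdk2), -0.03 (Pcna) and 0.00 (Cdc25c) in NRVCs. Heart Cenpa was 0.02 with no filter, and NRVC Rrm1 0.00 with a mean of at least 5 CPM. With the length offset the heart values were -0.06 (Ccnd3) and -0.18 (Rrm1), and the NRVC values -0.82 (Cdk6), -0.07 (Mcm2), -0.15 (Top2a), -0.39 (Mki67), -0.04 (Cenpa), -0.36 (Cenpe) and -0.63 (Cenpf). Without flox replicate 3 and cKO replicate 2 Ccnd3 was -0.34, Cdk4 0.40, Pcna 0.30 and Cenpa 0.04. Without siNC replicate 3 and siJmjd4 replicate 1 Cdk2 was -0.22, Pcna -0.11, Bub1b -0.03, Aurkb -0.13, Cenpa -0.07 and Prc1 -0.16. Leaving out 1 heart gave ranges of -0.22 to 0.76 (Ccnd3), -0.49 to 0.57 (Cdk4), -0.53 to 0.12 (Cdkn1a), -0.10 to 0.08 (Cenpa), -0.97 to 0.10 (Cenpf), -0.47 to 0.37 (Pcna) and -0.11 to 0.67 (Rrm2). Leaving out 1 NRVC library gave -0.00 to 0.22 (Cdca5), -0.12 to 0.65 (Cdk2), -0.03 to 0.51 (Cdk6), -0.04 to 0.24 (Cenpa), -0.20 to 0.02 (Foxm1), -0.00 to 0.09 (Mcm2), -0.06 to 0.25 (Pcna), -0.09 to 0.07 (Prc1), values up to 0.34 for both Bub1b and Aurkb, and -0.07 to 0.07 (Rrm1).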
